A study of Mus musculus with 185 samples.

Results

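The hypothalamus was compared between mice fasted for 24 h and mice kept on chow, in 17 of the 185 bulk RNA-seq columns of the series. The study exposed male C57BL/6J mice, 8 weeks old, to chow, a high-fat diet or fasting for 16 h, or to chow or fasting for 24 h, and sequenced 5 brain regions of each mouse. The 19 mice of the 24 h study were single-housed, had free access to water, and either remained on chow or had the food removed for 24 h, beginning in the morning. No genetic modification or drug was used, and each mouse gave 1 column of each region, which makes the mouse the replicate. The hypothalamus was taken crudely as a whole, with every nucleus in it, so that a change in a small nucleus is diluted by the rest of the piece. In such a bulk sample, fewer cells of a type and less RNA per cell cannot be told apart.

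The 5 columns of a mouse share its heading and carry no region, so the hypothalamus column was chosen by measured values. In each mouse it is the column of at least 1000000 counts in which the mean log2(CPM + 1) of Avp, Oxt, Nkx2-1, Six6, Rax and Fezf1 was highest, provided that it stood at least 1 above the next column. CPM stands for counts per 1000000 counts of the column. This gave 7 chow and 10 fasted mice out of 19. The marker mean of the chosen columns ran from 3.75 to 4.82, and that of the 74 other columns of this depth from 0 to 1.88. The smallest accepted lead over the next column was 2.44, and the 2 chow mice left without a hypothalamus column had leads of 0.275 and 0.389. These 6 genes chose the columns and were left out of every test.

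Of 15 hypothalamic genes that the choice did not use, most were much higher in the chosen columns. Orexin (Hcrt), made in the lateral hypothalamus, had a median of 104 CPM in the chosen columns and 0.219 CPM in the others. The paraventricular transcription factors Sim1 and Otp had medians of 25.2 and 46.4 CPM against 0.0687 and 0.187 CPM, and Nr5a1, which marks the ventromedial nucleus, had 13.9 against 0.0251 CPM. Sox14 was an exception, with medians of 2.78 and 2.34 CPM and a higher maximum in the other columns, 16.4 against 5.16 CPM. The summed level of the 15 ran from 333.5 to 1035 CPM in the chosen columns and from 11.7 to 227 CPM elsewhere.

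4 of the 17 libraries stood apart from the rest. The hypothalamus libraries of chow mouse 1422 and fasted mice 1435, 1445 and 1455 had no RNA detected before library preparation, were sequenced on another flowcell and are labelled as failing the alignment check, and those of 1422 and 1435 carry a remark that the dissection was uncertain. Their totals lay between 4200885 and 6910059 counts, against 16127129 to 63494453 in the 13 libraries labelled ok. On the first principal component they lay between 99.6 and 172, and the others between -73.4 and -23.8. The share of mitochondrial counts was 12.7% to 29.2% in them and 7.64% to 11.4% in the others. Results are therefore given for all 17 libraries and for the 13 marked ok, 6 on chow and 7 fasted. Body weight changed by -0.386% to 3.46% in the 7 chow mice and by -21.4% to -17.1% in the 10 fasted mice.

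As background, the arcuate nucleus at the base of the hypothalamus holds opposed sets of neurons. Neurons that make agouti-related peptide (Agrp) and neuropeptide Y (Npy) drive feeding, and neurons that make pro-opiomelanocortin (Pomc) and Cart (Cartpt) restrain it. Leptin from fat and ghrelin from the stomach act on these neurons through the receptors Lepr and Ghsr. Fasting in mice also raises corticosterone, the rodent glucocorticoid, whose receptor is a transcription factor present in neurons, glia and vessels.

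Agrp and Npy were higher after the fast in every fasted mouse than in any chow mouse. Agrp, the antagonist of melanocortin receptors, was at 3.86, 4.57 and 5.56 CPM (lowest, median and highest of 7 chow mice) and at 7.48, 11.7 and 15.9 CPM in the 10 fasted mice. Its log2 fold change was 1.48 (SE 0.23, adjusted p = 0.00111), and 1.32 (SE 0.14, adjusted p = 1.83e-05) in the libraries marked ok. Npy, which stimulates feeding, was at 10.9, 13.1 and 14.4 CPM on chow and at 19.5, 34.7 and 49.4 CPM after the fast. Its log2 fold change was 1.55 (SE 0.26, adjusted p = 0.00255), and 1.57 (SE 0.17, adjusted p = 2.01e-05) in the libraries marked ok. Adjusted p-values are from edgeR's quasi-likelihood test with Benjamini-Hochberg adjustment over all 21441 genes tested, of which 1.59% were called at an adjusted p under 0.05. Under every alternative tried, each mouse left out in turn included, both genes were called, with Agrp between 1.17 and 1.56 and Npy between 1.35 and 1.68 on the log2 scale. In GENCODE vM39 on GRCm39, Npy lies on the plus strand of chromosome 6 from 49799026 to 49806489 and shares no exonic base with another gene. Agrp is annotated on the minus strand of chromosome 8 from 106293326 to 106364065, and 748 of its 1140 exonic bases are shared with the opposite-strand model Gm38250, 154 with Ctcf on the opposite strand and 154 with the model Gm5914 on the same strand. The strand setting of the counts is not given in the sources used here, and strand cannot separate Agrp from Gm5914, so reads of those stretches cannot be assigned with certainty. Gm38250 itself fell by 0.76 (SE 0.17, adjusted p = 0.0219).

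**Figure D1:**
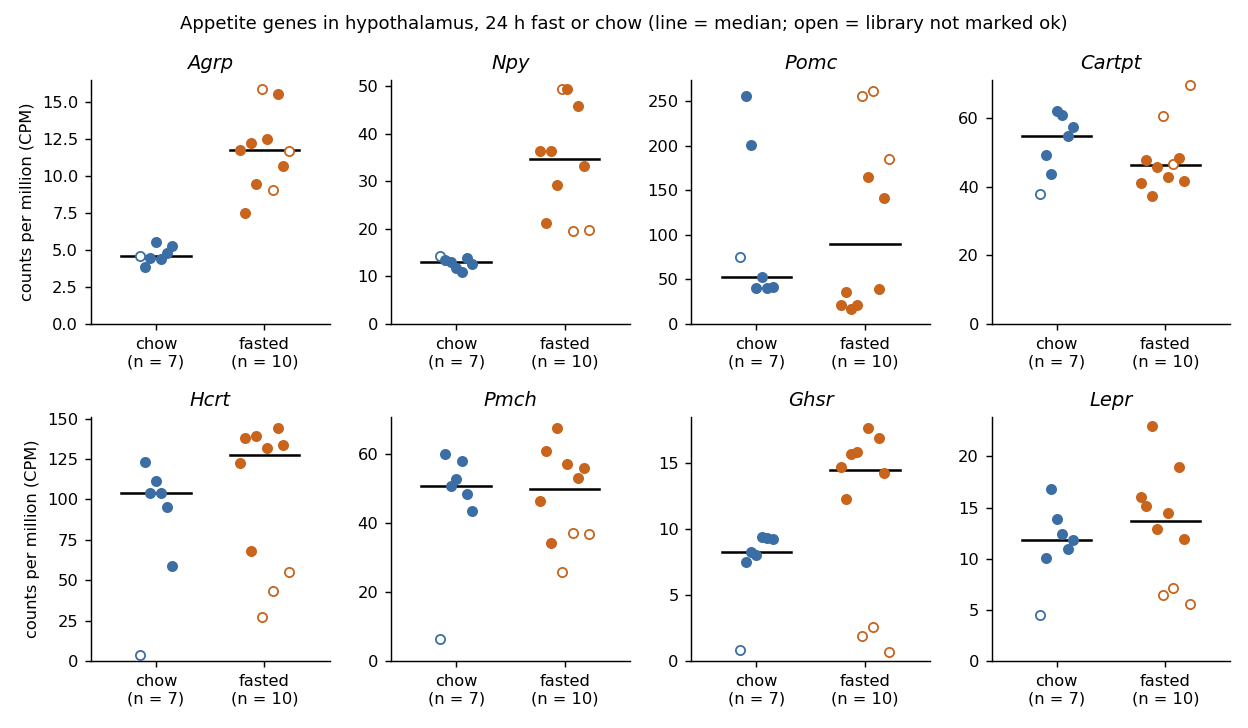
CPM of 8 appetite genes in the hypothalamus of 7 chow and 10 fasted mice, 1 point a mouse, with a line at each median; open points are the 4 libraries not marked ok. All fasted points of Agrp and Npy lie above all chow points, with fasted medians of 11.7 and 34.7 CPM, while the points of Pomc, Cartpt, Hcrt, Pmch and Lepr overlap between the diets and those of Ghsr separate among the filled points.

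The other arcuate peptides did not pass the test in all libraries. Pomc was at 40.5, 52.3 and 256 CPM on chow and at 17.2, 90.4 and 262 CPM after the fast. The diets overlapped, and 5 of the 10 fasted mice, all with libraries marked ok, lay below every chow mouse. Its log2 fold change was 0.53 (SE 0.70, adjusted p = 0.884) in all libraries and -0.64 (SE 0.64, adjusted p = 0.605) in those marked ok. Pomc is also made by the pituitary, and the pituitary hormones Prl and Gh were at 1991 and 7953 CPM in chow mouse 1431, whose Pomc was 200.5 CPM, and at 346 and 3101 CPM in fasted mouse 1445, whose Pomc was 262 CPM. In chow mouse 1452, Prl was at 0.233 CPM, Gh at 1.12 CPM and Pomc at 41.7 CPM. The part of pituitary tissue in the Pomc values was not tested. Cartpt was at 37.9, 54.7 and 62.0 CPM on chow and at 37.2, 46.2 and 69.5 CPM after the fast, with a log2 fold change of 0.08 (SE 0.21, adjusted p = 0.953). Its direction turned with the choice of libraries. In those marked ok, Cartpt was at 43.7 to 62.0 CPM on chow and at 37.2 to 48.3 CPM after the fast, and 5 of the 6 chow mice lay above every fasted mouse (log2 fold change -0.28, SE 0.09, adjusted p = 0.0516). Without chow mouse 1431, whose library held the most Prl and Gh, those libraries gave -0.34 for Cartpt (adjusted p = 0.0148). Of 7 arcuate peptide genes tested, 2 rose and none fell, in all libraries and in those marked ok. Over all genes tested, 0.956% rose and 0.63% fell in all libraries, and 6.03% rose and 6.23% fell in those marked ok. The median log2 fold change of the list was 0.08, beside -0.0058 over all genes tested. The log2 fold changes of the other members were -0.43 for Ghrh, which encodes growth hormone-releasing hormone, -0.22 for Pdyn (dynorphin) and 0.01 for Tac2 (neurokinin B). Kiss1 was not analysed here.

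The rise of Agrp and Npy differed from what the other columns of the same mice showed. For this, the hypothalamus column and the sum of the mouse's other columns were fitted together with the mouse as a block. The test asked whether the effect of the fast differed between them. The other columns, 66 over the 17 mice, were those of at least 1000000 counts, whatever the quality label of their library. Their counts were summed as they were, so each region counted by its depth and the mix of regions differed between mice. In these sums the median log2 fold change was 1.73 for striatum genes, against 0.12 in the hypothalamus. It was 0.24 for thalamus genes and 0.10 for cortex and hippocampus genes, and no member of these lists was called. The part of this mix in the differences below was not tested. Of 27704 genes, 2 were called, Agrp and Npy, which is 0.00722%, and 573 had an unadjusted p under 0.05. The simulated data for this test had a spread set beforehand, below the one estimated in the comparison of hypothalamus between the diets. On them, this test recovered 60 of 100 genes changed by 1 on the log2 scale. It recovered 0 of 100 changed by 0.5, so a gene without a call may still differ. The effect on Agrp was larger in the hypothalamus by 1.94 on the log2 scale (SE 0.26, adjusted p = 0.0122), and that on Npy by 1.56 (SE 0.22, adjusted p = 0.0137). In the other columns, Agrp was at 0.921, 1.37 and 1.63 CPM on chow and at 0.499, 0.951 and 1.20 CPM after the fast, a log2 fold change of -0.53 (SE 0.13, adjusted p = 0.0229). Npy, which cortical and hippocampal interneurons also make, was there at 9.24, 12.6 and 18.3 CPM on chow and at 6.17, 12.0 and 18.7 CPM after the fast, a log2 fold change of -0.09 (SE 0.20, adjusted p = 0.860). Both calls are close to the threshold, and limma on differences in log2 CPM called neither, nor any other gene (520 at an unadjusted p under 0.05). By the edgeR test, Agrp alone was called without chow mouse 1432, and also among mice whose hypothalamus library is marked ok. That label did not select their other columns, and some libraries of other regions of these mice had no RNA detected. Npy alone was called without mice 1423 and 1454, between which a tube of the superior colliculus was swapped. Neither was called without chow mouse 1452, with 429 genes at an unadjusted p under 0.05.

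For the remaining genes called in the hypothalamus, the other columns were measured in the same way. Of 339 called genes that were also tested in the other columns, 254 were called there too and in the same direction, where 7.21% of all genes tested in both were called. Among the genes with the largest rise, Cdkn1a rose by 3.39 in the hypothalamus and by 3.52 in the other columns, and Plin4 by 3.07 and 3.11 (log2).

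**Figure D2:**
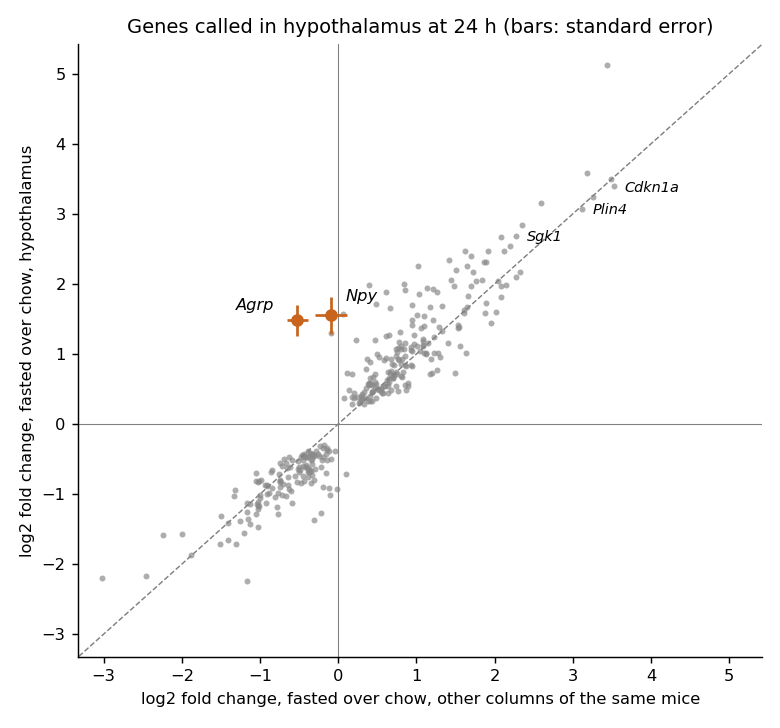
Log2 fold change of fasted over chow in the hypothalamus (vertical axis) and in the summed other columns of the same mice (horizontal axis), 1 point for each of 339 genes called in the hypothalamus; the dashed line marks equal change and the bars on Agrp and Npy are standard errors. Agrp, at 1.48 against -0.53, and Npy, at 1.55 against -0.09, lie far from the line, near which Cdkn1a and Plin4 lie.

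Peptides of the lateral hypothalamus and other feeding peptides did not pass the test in any of 13 genes. Hcrt was at 4.13, 104 and 123 CPM on chow and at 27.2, 127 and 144 CPM after the fast (log2 fold change 0.34, SE 0.38, adjusted p = 0.858). Melanin-concentrating hormone (Pmch), which promotes feeding, was at 6.53, 50.7 and 59.9 CPM on chow and at 25.9, 49.8 and 67.5 CPM after the fast (0.21, SE 0.24, adjusted p = 0.857). The lowest values of both genes on chow belong to mouse 1422, and the 3 fasted libraries not marked ok were among the 4 lowest fasted values of each. The list had a median log2 fold change of 0.10. In the libraries marked ok, where 6.23% of all genes fell, 2 members fell. These were the neuropeptide gene Adcyap1, by 0.32 (adjusted p = 0.00562), and the neurotrophin gene Bdnf, by 0.30 (adjusted p = 0.0310), on the log2 scale.

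Among receptors for appetite hormones, no member of 24 passed in all libraries, and the ghrelin receptor Ghsr moved with the choice of libraries. It was at 0.870, 8.31 and 9.39 CPM on chow and at 0.724, 14.5 and 17.7 CPM after the fast, with a log2 fold change of 0.65 (SE 0.42, adjusted p = 0.699). The 4 libraries not marked ok gave the lowest values of their diets, at or under 2.62 CPM. In the libraries marked ok the diets did not overlap and Ghsr rose by 0.88 (SE 0.10, adjusted p = 3.0e-05), where 12.3% of 21963 genes were called, 6.03% as higher and 6.23% as lower in fasted mice. Of the list, 3 members rose and 4 fell in the libraries marked ok. The insulin receptor Insr rose by 0.23 and the receptor Mchr1 for melanin-concentrating hormone by 0.40, while Cckbr fell by 0.35, Npy2r by 0.35, Hcrtr2 by 0.38 and Prlr by 0.32 (log2). Lepr was at 4.57, 11.8 and 16.8 CPM on chow and at 5.64, 13.7 and 22.9 CPM after the fast (log2 fold change 0.29, SE 0.19, adjusted p = 0.698). Mc4r, the melanocortin receptor that Agrp blocks, had a log2 fold change of 0.07 (SE 0.26, adjusted p = 0.969) at medians of 2.73 and 2.31 CPM. Of 13 genes of leptin and cytokine feedback, the repressor Bcl6 rose by 0.89 (SE 0.11, adjusted p = 7.98e-05), from a median of 17.2 to 32.1 CPM, and Socs3, the leptin-induced brake on its receptor, had a log2 fold change of -0.50 (adjusted p = 0.488).

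None of 9 genes on the releasing hormone list, which also holds Th, Ucn3, Scg2 and Vgf, passed in all libraries. Crh, the hypothalamic start of the stress axis, was at 1.24, 1.69 and 3.48 CPM on chow and at 1.16, 2.95 and 6.07 CPM after the fast, overlapping, with a log2 fold change of 1.07 (SE 0.36, adjusted p = 0.206). Among libraries marked ok Crh rose by 1.48 (SE 0.31, adjusted p = 0.00486), still with overlap between the diets, and Vgf, which encodes a secreted peptide precursor, rose by 0.46 (adjusted p = 0.00695). Trh had a log2 fold change of -0.0039 (SE 0.33, adjusted p = 0.998), Sst of -0.02 (SE 0.23, adjusted p = 0.994), Gnrh1 of -0.16 (SE 0.46, adjusted p = 0.958) and Ghrh of -0.43 (SE 0.24, adjusted p = 0.627). The median of the list was -0.0039.

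Over all genes, 205 were called higher and 135 lower in fasted mice, 0.956% and 0.63% of those tested. Among the libraries marked ok, 1325 were higher and 1369 lower. All 340 genes called with 17 libraries were also called with 13, in the same direction. CPM of the diets did not overlap in 64 genes that were higher and 52 that were lower, 0.298% and 0.243% of those tested. A rise of 2-fold or more was seen in 104 called genes and a fall of 2-fold or more in 38. Single mice moved the count of calls, to 214 without chow mouse 1432, 220 without 1442, 222 without 1443 and 523 without 1422.

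Among called genes without overlap and with a mean of at least 1 on the log2 CPM scale, the 10 largest rises were led by Cdkn1a. This gene, which encodes the cell cycle inhibitor p21, was at 4.89, 5.85 and 9.35 CPM on chow and at 28.0, 54.1 and 107 CPM after the fast (log2 fold change 3.39, SE 0.30, adjusted p = 4.37e-06). Plin4, a lipid droplet coat protein, went from a median of 8.87 to 70.1 CPM (3.07, SE 0.22, adjusted p = 2.56e-07). Sgk1, a kinase that regulates ion channels and transporters, was at 19.5, 20.7 and 24.4 CPM on chow and at 88.5, 137 and 179 CPM after the fast (2.69, SE 0.14, adjusted p = 2.39e-09). It had the lowest adjusted p of all genes tested, and every fasted mouse was more than 3 times the highest chow mouse. Of 7987 exonic bases of Plin4, 3124 are shared with Hdgfl2 on the opposite strand, and 504 of 6045 of Cdkn1a with Dino. Arl4d, a small GTPase, rose by 2.67, Hif3a, a hypoxia-inducible factor subunit, by 2.47, the sulfotransferase Sult1a1 by 2.46, the GABA receptor subunit Gabrr2 by 2.40 and the kinase Map3k6 by 2.31. Kirrel2, an adhesion molecule, rose by 2.31 and Plekhf1, an endosomal protein, by 2.20.

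The falls were smaller. 8 genes met the same rule. Apln, the ligand of the apelin receptor, was at 18.9, 21.9 and 25.2 CPM on chow and at 6.08, 8.86 and 11.2 CPM after the fast (log2 fold change -1.18, SE 0.13, adjusted p = 6.65e-05). Gbp3, an interferon-inducible GTPase, fell by 1.39 and Fcrl2, of the Fc receptor-like family, by 1.05. Sox18, a transcription factor of endothelial cells, fell by 0.87 but lost its call when any 1 of 9 of the 17 mice was left out (adjusted p up to 0.0979, without 1431). The receptor family member Paqr6 fell by 0.74, the long non-coding RNA Sox2ot by 0.68 and the mismatch repair gene Mlh3 by 0.45.

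Most genes on a list of genes known to respond to glucocorticoids rose. The list was chosen with earlier results of these data known, so its counts are a description and not a test. Of 20 tested, 16 rose, none fell and 4 did not pass, beside 0.956% of all genes called higher. Their median log2 fold change was 1.60, and 15 to 20 members were called over 34 settings of the analysis. With the 13 libraries marked ok, 19 were tested and 19 rose, with a median of 1.49 beside 0.00026 over all genes tested. Fkbp5, a co-chaperone of the glucocorticoid receptor, was at 16.8, 27.4 and 35.9 CPM on chow and at 44.5, 70.3 and 147 CPM after the fast, without overlap (log2 fold change 1.66, SE 0.19, adjusted p = 7.2e-05). Tsc22d3, which encodes the anti-inflammatory protein Gilz, rose from a median of 51.9 to 117 CPM, Zbtb16 from 27.7 to 77.0 CPM and Nfkbia, the inhibitor of NF-kappaB, from 12.2 to 32.9 CPM. Arrdc2 rose by 2.10 (SE 0.18), Ddit4 by 1.63 (SE 0.29), Errfi1 by 1.22 (SE 0.15) and Klf9 by 0.83 (SE 0.12) on the log2 scale. The 4 members that did not pass had positive values, 1.64 for Mt2, 1.57 for Mt1, 1.46 for Lcn2 and 0.58 for Dusp1. The same 20 genes had a median log2 fold change of 1.58 in the other columns, and no member of the list was called as differing between the hypothalamus and the rest. Levels of the receptors did not pass. Of 8 genes of corticosteroid receptors and steroid handling none was called in either set of libraries, with log2 fold changes of -0.15 for Nr3c1 (the glucocorticoid receptor), 0.01 for Nr3c2 (the mineralocorticoid receptor) and 0.03 for Hsd11b1, which regenerates active steroid, and a list median of 0.02.

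**Figure D3:**
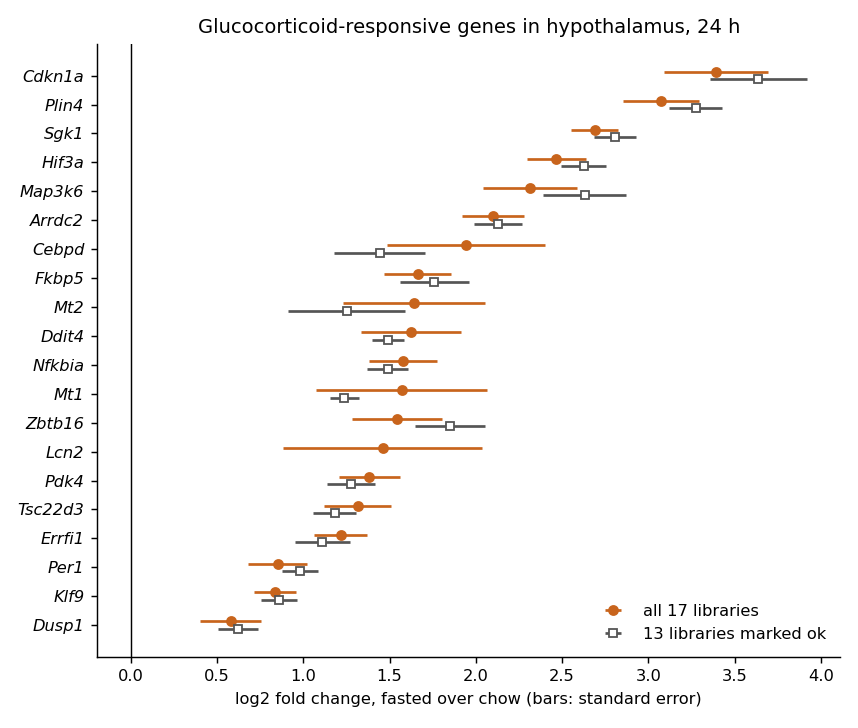
Log2 fold change of fasted over chow, with its standard error, for 20 glucocorticoid-responsive genes in the hypothalamus, from all 17 libraries (filled) and from the 13 marked ok (open; Lcn2 was not tested there). Every point lies above 0, from 0.58 for Dusp1 to 3.39 for Cdkn1a in all libraries.

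The promoters of a few genes that moved are shown for the letters that known factors read. Windows from 250 bases before to 50 bases after a transcription start were taken from RefSeq on GRCm38.p6, where 12905 of 21289 tested symbols had at least 1, and were searched on both strands. The full palindrome of the glucocorticoid receptor was found in 2 of the 12905 genes (0.0155%), and 1 of them was Sgk1, in 1 of its 6 windows. Among the 153 genes that rose and have a window, this was 1 gene (0.654%), and among the 94 that fell there was none. The FoxO motif GTAAACA was in 6.54% of genes that rose, 4.26% of genes that fell and 3.09% of all. The E-box CACGTG, read by clock factors among others, was in 15.7%, 10.6% and 10.8%, and the cyclic AMP response element TGACGTCA in 3.27%, 2.13% and 3.19%. These shares describe short windows, and no match says only that the letters are not in that window. In the windows below, capitals mark matches. Sgk1 (chr10:21993640-21993939, plus strand) holds the palindrome, read on both strands, and an E-box. Klf9 (chr19:23140976-23141275, plus strand), a transcription factor that responds to glucocorticoids and thyroid hormone, and Txnip (chr3:96557707-96558006, plus strand), which restrains glucose uptake, hold the FoxO motif. Klf15 (chr6:90462326-90462625, plus strand), a regulator of amino acid and glucose metabolism, holds the E-box 3 times. Npy (chr6:49822460-49822759, plus strand) is shown as a gene whose rise differed from the other columns, and it holds none of the 4 motifs. Agrp had no window. FoxO matches also lay in windows of Slc7a11 and Gbp3, and E-boxes in those of Hsph1, named genes that fell and are not shown.
Sgk1: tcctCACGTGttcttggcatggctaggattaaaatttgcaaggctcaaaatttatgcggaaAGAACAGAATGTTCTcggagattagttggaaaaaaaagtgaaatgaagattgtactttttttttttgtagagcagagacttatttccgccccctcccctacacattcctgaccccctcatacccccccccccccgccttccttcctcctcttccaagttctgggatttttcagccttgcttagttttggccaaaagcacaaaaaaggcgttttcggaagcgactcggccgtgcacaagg
Klf9: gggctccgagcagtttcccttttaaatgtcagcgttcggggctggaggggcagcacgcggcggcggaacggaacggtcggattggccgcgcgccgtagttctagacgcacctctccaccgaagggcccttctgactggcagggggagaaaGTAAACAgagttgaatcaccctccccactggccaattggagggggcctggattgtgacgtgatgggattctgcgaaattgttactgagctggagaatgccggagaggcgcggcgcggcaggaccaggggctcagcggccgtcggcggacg
Txnip: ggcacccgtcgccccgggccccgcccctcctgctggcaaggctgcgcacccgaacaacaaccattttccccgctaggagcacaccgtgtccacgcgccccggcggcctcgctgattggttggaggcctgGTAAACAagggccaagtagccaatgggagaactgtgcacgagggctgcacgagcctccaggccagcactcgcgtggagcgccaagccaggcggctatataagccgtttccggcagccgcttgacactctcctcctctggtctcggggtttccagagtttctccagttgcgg
Klf15: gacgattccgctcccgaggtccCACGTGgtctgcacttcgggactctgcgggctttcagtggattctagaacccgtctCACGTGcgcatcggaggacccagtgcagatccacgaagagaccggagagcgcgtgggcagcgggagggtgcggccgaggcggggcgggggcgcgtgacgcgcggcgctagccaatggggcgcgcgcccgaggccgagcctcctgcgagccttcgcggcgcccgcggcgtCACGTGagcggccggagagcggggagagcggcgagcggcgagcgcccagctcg
Npy: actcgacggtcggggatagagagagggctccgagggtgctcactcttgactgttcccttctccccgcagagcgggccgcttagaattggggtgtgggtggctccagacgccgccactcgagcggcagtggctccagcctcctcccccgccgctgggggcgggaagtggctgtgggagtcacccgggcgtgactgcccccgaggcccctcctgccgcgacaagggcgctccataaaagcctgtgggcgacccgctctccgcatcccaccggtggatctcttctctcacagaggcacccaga

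Genes of fuel use changed in a few members of each list. Over all genes tested, 0.956% rose and 0.63% fell in all libraries, and 6.03% rose and 6.23% fell in those marked ok, which is the background of the counts for each list below. Of 24 genes of fatty acid oxidation and ketone bodies, 3 rose and none fell in all libraries, beside these 0.956% and 0.63%, with a list median of 0.11. Angptl4, a secreted inhibitor of lipoprotein lipase, was at 2.79, 3.16 and 3.91 CPM on chow and at 3.94, 8.09 and 13.3 CPM after the fast (log2 fold change 1.42, SE 0.17, adjusted p = 0.000107). Pdk4, which blocks the entry of pyruvate into mitochondrial oxidation, went from a median of 7.44 to 16.6 CPM (1.38, SE 0.18). The carnitine transferase Cpt1a, which admits fatty acids to mitochondria, had a log2 fold change of 0.07 (adjusted p = 0.940), and Ppara, the receptor that drives this programme in liver, 0.19 (adjusted p = 0.864).

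Of 20 insulin and FoxO genes, 4 rose in all libraries and 10 rose and 1 fell in those marked ok, beside 6.03% and 6.23% of all genes there, with list medians of 0.15 and 0.21. Klf15 was at 19.8, 22.0 and 23.9 CPM on chow and at 33.5, 40.6 and 50.8 CPM after the fast (log2 fold change 1.12, SE 0.15, adjusted p = 0.000218). Txnip rose by 1.65, Sesn1 by 0.57 and Arrdc3 by 0.49. Among libraries marked ok, Foxo1 rose by 0.44, Foxo3 by 0.42, Irs2 by 0.32 and Igf1r by 0.32, and Akt2 fell by 0.30. Of 13 brakes on the growth regulator mTORC1, Ddit4 rose by 1.63, Sesn1 by 0.57 and the arginine sensor Castor1 by 0.72 (adjusted p = 0.0418), none fell, and the list median was -0.03. Castor1 lost its call when any 1 of 11 of the 17 mice was left out (adjusted p up to 0.108, without 1443). Of 12 p53 target genes, Cdkn1a, Trp53inp1 and Sesn1 rose, none fell, and the list median was 0.25. The call of Trp53inp1, at 0.69, was lost when any 1 of 7 mice was left out (adjusted p up to 0.0774, without 1443). Cdkn1a is also on the glucocorticoid list, and Mdm2, the p53 feedback regulator, had a log2 fold change of 0.27 (adjusted p = 0.603).

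No lipid synthesis gene fell in all libraries. Of 21 sterol synthesis genes none passed with 17 libraries, at a median log2 fold change of -0.33. With 13 libraries 8 fell, beside 6.23% of all genes, at a median of -0.23. Among these 8 were Hmgcs1, which fell by 0.35, Msmo1 by 0.41, Fdps by 0.39 and the regulator Srebf2 by 0.29. Of 13 fatty acid synthesis genes, Acacb, the mitochondrial acetyl-CoA carboxylase, rose by 0.54 (adjusted p = 0.0308), a call lost when any 1 of 9 mice was left out (adjusted p up to 0.0861, without 1443). With the 13 libraries marked ok, Fads2, Elovl6, Fasn and Me1 fell, by 0.42, 0.31, 0.22 and 0.31. The medians of this list were -0.22 with 17 and -0.22 with 13 libraries.

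Of 14 genes of thyroid hormone handling, Hr, a nuclear corepressor induced by the hormone, was at 16.8, 46.0 and 52.4 CPM on chow and at 72.6, 146 and 193 CPM after the fast (log2 fold change 1.86, SE 0.19, adjusted p = 1.69e-05). Klf9 rose too, and the list median was -0.07. Dio2, the enzyme that activates thyroid hormone in tanycytes and astrocytes, had a log2 fold change of 0.85 (adjusted p = 0.0596) and rose by 0.86 (adjusted p = 0.00581) in the libraries marked ok. There, 4 members rose and 5 fell, the transporter Slco1c1 by 0.54 among them.

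Of 19 clock genes, Per1, which glucocorticoids also induce, went from 27.0, 60.1 and 67.1 CPM to 43.6, 101 and 151 CPM (log2 fold change 0.85, SE 0.17, adjusted p = 0.0127), and the list median was 0.09. The libraries marked ok gave 7 that rose and 5 that fell, beside 6.03% and 6.23% of all genes. Npas2 rose by 0.88, Cry1 by 0.69 and Cry2 by 0.39, and Dbp fell by 0.61, Per3 by 0.32 and Nr1d1 by 0.25. Of 16 immediate early genes none passed in all libraries, at a median of 0.14, and in those marked ok Fos rose by 0.69, Egr1 by 0.49 and Junb by 0.37, and Arc fell by 0.39.

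Of 16 cytosolic heat shock genes, the co-chaperones Chordc1 and Hsph1 fell by 0.47 (adjusted p = 0.00814) and 0.39 (adjusted p = 0.0405), and the list median was 0.03. Hsph1 lost its call when any 1 of 13 mice was left out (adjusted p up to 0.129, without 1432). Of 15 endoplasmic reticulum chaperone genes none passed in all libraries, at a median of -0.23, and Sdf2l1, Pdia4 and Creld2 fell in those marked ok, by 0.67, 0.32 and 0.44. Of 12 integrated stress response genes, the cystine transporter Slc7a11 fell by 0.70 (adjusted p = 0.0233), at a list median of 0.25, and lost its call when any 1 of 5 mice was left out (adjusted p up to 0.0758, without 1442).

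**Figure D4:**
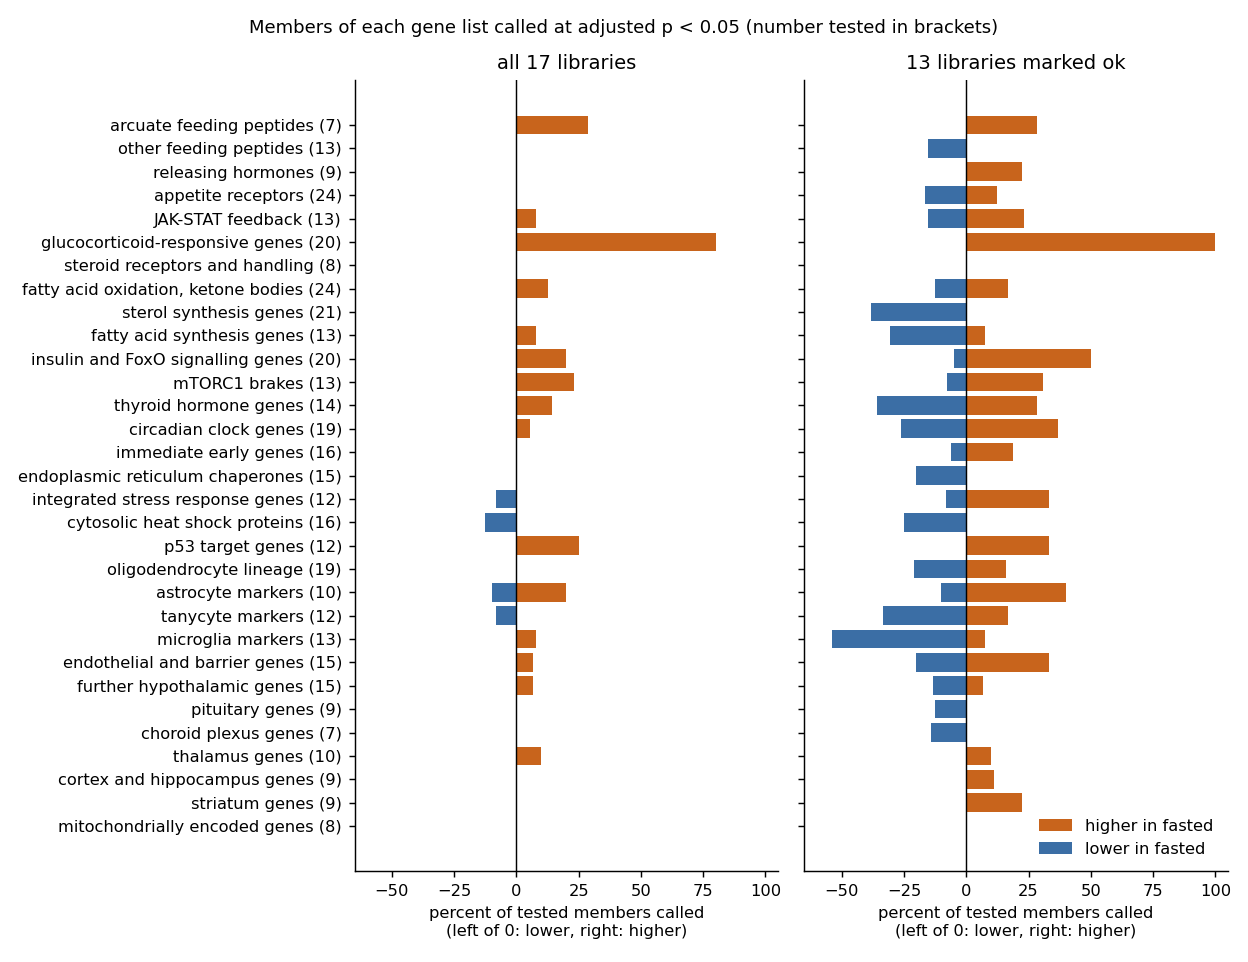
Percent of the tested members of each of 31 gene lists called higher (right of 0) or lower (left of 0) in fasted hypothalamus, from all 17 libraries (left panel) and from the 13 marked ok (right panel), with the number tested in all libraries in brackets. Of the glucocorticoid-responsive genes, 16 of 20 were called higher on the left. More lists hold lower members on the right, microglia markers with 7 of 13. The lists were chosen with earlier results of these data known.

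Markers of glia and vessels moved gene by gene. Among 10 astrocyte markers, Glul, the glutamine synthetase, was at 975, 1122 and 1201 CPM on chow and at 1576, 1899.9 and 2264 CPM after the fast (log2 fold change 0.92, SE 0.20, adjusted p = 0.0216), and the gap junction gene Gjb6 rose by 0.94. The diets did not overlap in Glul, whose call was lost when any 1 of 5 mice was left out (adjusted p up to 0.0562, without 1432). The water channel Aqp4 fell by 0.83 (SE 0.17, adjusted p = 0.0116), from a median of 171 to 85.3 CPM, with chow mouse 1422 lowest of its diet at 48.9 CPM. The summed level of the list was 2813 to 5774 CPM on chow and 3148 to 6825 CPM after the fast, and its median log2 fold change was 0.21. In the libraries marked ok the sum did not overlap, at 4983 to 5774 CPM on chow and 5997 to 6825 CPM after the fast. There, 4 members rose and 1 fell, beside 6.03% and 6.23% of all genes, and the list median was 0.15. Among 12 tanycyte markers, the intermediate filament Nes fell by 1.13 (SE 0.26, adjusted p = 0.0278), and in the libraries marked ok, where the diets did not overlap, by 1.00 (SE 0.06, adjusted p = 9.39e-08). With all libraries its call was lost when any 1 of 8 mice was left out (adjusted p up to 0.0913, without 1432). Among libraries marked ok, Gpr50 fell by 0.94 and Scn7a by 0.65, and Adm rose by 0.93. The median of this list was -0.07.

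Among 13 microglia markers, the integrin Itgad was at 0.116, 0.290 and 0.435 CPM on chow and at 1.01, 2.83 and 3.46 CPM after the fast (log2 fold change 3.50, SE 0.34, adjusted p = 1.05e-05), without overlap. Its chow values rest on a few reads a library, so the size of this fold change is less certain. The other 12 did not pass in all libraries, and the list median was -0.21. In the libraries marked ok, where 6.23% of all genes fell, 7 fell, Cx3cr1 by 0.84, P2ry12 by 0.61, Tmem119 by 0.41 and Aif1 by 0.91 among them, and the summed level was 195 to 214 CPM on chow and 142 to 190 CPM after the fast. Among 15 genes of endothelium and blood-brain barrier, the lipid transporter Mfsd2a was at 2.39, 15.5 and 19.4 CPM on chow and at 14.0, 50.1 and 66.8 CPM after the fast (log2 fold change 1.72, SE 0.27, adjusted p = 0.00122), and the list median was 0.08. With the 13 libraries marked ok, the glucose transporter Slc2a1 rose by 0.96, the amino acid transporter Slc7a5 by 0.58 and the drug exporter Abcg2 by 0.43, and Itm2a fell by 0.75, Flt1 by 0.23 and Tjp1 by 0.19. Of 19 oligodendrocyte genes none passed in all libraries, at a median of -0.17, and in those marked ok 3 rose and 4 fell, beside 6.03% and 6.23% of all genes, with Opalin at -1.20. Of 8 mitochondrially encoded genes none passed, at a median of 0.29.

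Markers of neighbouring tissue were measured beside these results. Of 10 thalamus genes, Prkcd, a kinase abundant in the thalamus, was at 8.27, 10.6 and 12.0 CPM on chow and at 12.1, 21.5 and 140 CPM after the fast (log2 fold change 1.91, SE 0.41, adjusted p = 0.0198), without overlap. Without fasted mouse 1424, which held the highest value, it rose by 1.41 (adjusted p = 0.00282), and without chow mice 1432, 1452 or 1443 it was not called (adjusted p of 0.0522, 0.0519 and 0.0539). The summed level of the thalamus list was 175 to 655 CPM on chow and 220 to 1067 CPM after the fast, highest in the same mouse 1424, and the other 9 members did not pass. Whether thalamic tissue took part in the Prkcd difference was not tested. The summed pituitary list was 147 to 10306 CPM on chow and 140 to 3580 CPM after the fast, with no member of 9 called in all libraries. In those marked ok, Prl had a log2 fold change of -6.21 (adjusted p = 0.0252), which rests on chow mouse 1431. Prl was at 1991 CPM there, at 0.233 to 25.5 CPM in the other 5 chow mice marked ok and at 0.953 to 14.8 CPM in the fasted mice marked ok, and without mouse 1431 it had a log2 fold change of -0.57 (adjusted p = 0.795). The summed cortex and hippocampus list was 500 to 1028 and 387 to 1377 CPM, the striatum list 161 to 260 and 183 to 276 CPM, and the choroid plexus list 48.7 to 124 and 45.9 to 99.5 CPM. None of their 9, 9 and 7 members passed in all libraries. In the libraries marked ok, the striatal signalling gene Ppp1r1b rose by 1.11 (adjusted p = 2.09e-06), Gpr6 by 0.71 and the cortical factor Tbr1 by 1.25. The cortex and hippocampus sum of 1377 CPM was that of fasted mouse 1433, marked ok. It was 531 to 659 CPM in the other fasted libraries marked ok and 500 to 826 CPM in chow libraries marked ok. The part of cortical tissue in the Tbr1 difference was not tested. Of the 15 further hypothalamic genes, Agrp alone was called in all libraries. Gpr50 and Tbx3 fell in those marked ok.

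The hypothalamus of the 16 h study offered a shorter fast for comparison. The same rule chose columns of 5 chow and 6 fasted mice there. These mice were housed in pairs and sequenced apart from the 24 h study, so length of the fast, housing and sequencing cannot be told apart. The diet was assigned by cage, and the test counted mice of the same cage as separate replicates. The column of fasted mouse 12 stood apart there, with a marker mean of 2.98 against 4.06 to 4.72 in the other 10 mice and with Pmch at 20.5 CPM, and another of its columns, of 121967 counts, had a marker mean of 2.16. The label of this mouse's hypothalamus library, a failed alignment check, was applied to the chosen column, which holds 14026495 counts. Chow mouse 5 was left out, since its highest column and the next had marker means of 4.76 and 4.44. Body weight changed by 0.386% to 5.13% in the 5 chow mice used. It changed by -7.52% to -1.30% in the 6 fasted mice, beside -21.4% to -17.1% in the 10 fasted mice of the 24 h study. Of 24184 genes tested, the effect of the fast differed between the studies in 27 (0.112%). The log2 fold change was higher at 24 h in 22, which rose there, and lower at 24 h in 5, which fell there. All 27 were called in the same direction when libraries not marked ok were left out of both studies, among 372 called then (1.54%). Without mouse 12 alone 38 were called, all 27 among them and in the same direction. Cdkn1a changed by 0.46 (SE 0.30) at 16 h, a difference of 2.96 (SE 0.39, adjusted p = 0.00068) from the 24 h study, and Plin4 by 0.73 (SE 0.25), a difference of 2.35 (SE 0.33, adjusted p = 0.00079). Sgk1 was at 21.7, 26.3 and 27.4 CPM on chow and at 24.5, 45.6 and 77.4 CPM after 16 h, highest in mouse 12 (log2 fold change 0.89, SE 0.22), and Fkbp5 at 25.2, 26.4 and 28.8 CPM and at 25.4, 28.3 and 48.7 CPM (0.29, SE 0.21). The differences were 1.80 (SE 0.28) for Sgk1 and 1.38 (SE 0.27) for Fkbp5. Arrdc2 differed by 1.70, Otoa, an inner ear protein gene, by 2.29, Angptl4 by 1.56, Hr by 1.51, Pdk4 by 1.23 and the triglyceride lipase Pnpla2 by 1.41. The 5 that fell at 24 h were Gkn3, by -2.19 against 0.05 at 16 h, Alpl, by -1.26 against 0.03, and C030029H02Rik, by -1.35 against -0.14. The others were Padi2, by -1.22 against -0.07, and Paqr6, by -0.74 against -0.07. The joint fit, which also held the 24 h libraries not marked ok, called 0 of the genes tested at 24 h as changed at 16 h. A gene without a call at 16 h may still have changed there, with Sgk1 at 0.89 (SE 0.22) and Sdc4 at 0.42 (SE 0.11). Leaving out 1 mouse gave 20 to 52 genes, with 44 without chow mouse 1422 and 49, 41 and 52 without fasted mice 1425, 1435 and 1455.

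Agrp at 16 h was at 6.06, 6.81 and 10.3 CPM on chow and at 4.71, 6.62 and 11.8 CPM after the fast (log2 fold change 0.04, SE 0.26), and Npy at 6.42, 7.71 and 8.95 CPM and at 3.07, 7.63 and 12.3 CPM (0.05, SE 0.30). The diets overlapped in both genes. Fasted mouse 12 held the lowest value of both. The differences from the 24 h study, 1.44 (SE 0.34, adjusted p = 0.106) for Agrp and 1.50 (SE 0.39, adjusted p = 0.192) for Npy, did not pass with all libraries or without mouse 12 (adjusted p = 0.174 and 0.240) and did with those marked ok (adjusted p = 0.0185 and 0.00701).

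**Figure D5:**
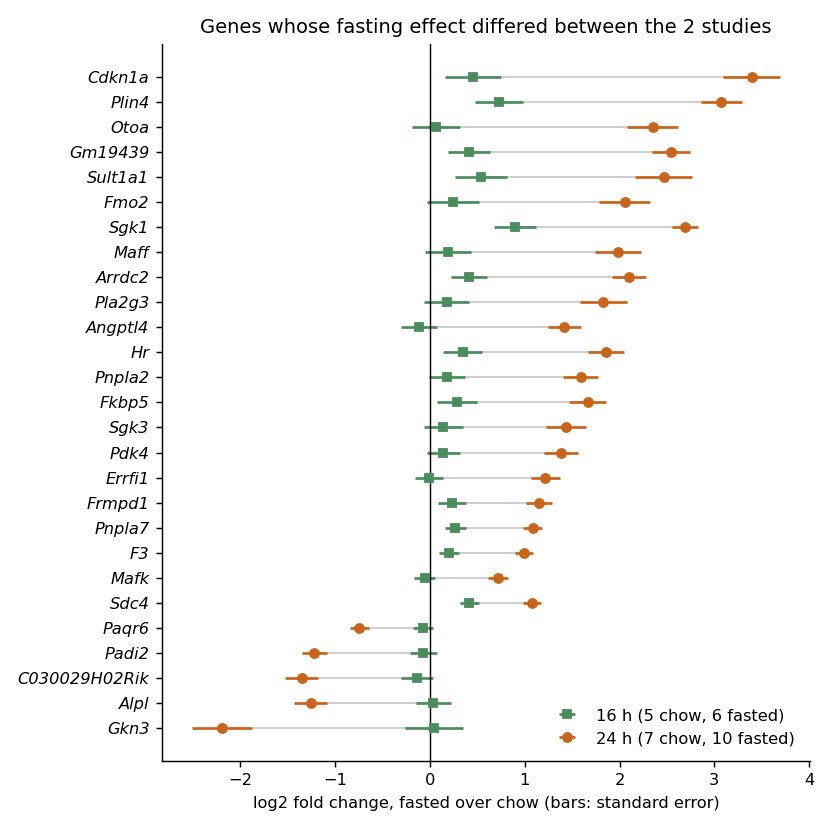
Log2 fold change of fasted over chow, with its standard error, in the hypothalamus of the 24 h study (circles, 7 chow and 10 fasted mice, fitted alone) and of the 16 h study (squares, 5 chow and 6 fasted mice, from the joint fit), for the 27 genes whose effect differed between the studies. The 16 h values lie between -0.14 for C030029H02Rik and 0.89 for Sgk1, and the 24 h values between -2.19 for Gkn3 and 3.39 for Cdkn1a.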

How the data were processed

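Per the labels, the study's authors prepared rRNA-depleted, strand-marked libraries, demultiplexed reads with bcl2fastq 2.20.0 and counted reads per gene with STAR 2.7.3a on GRCm39. The deposited matrix holds raw counts of 57010 genes in 185 columns, of which 155 were used and 30 columns of high-fat diet mice were not. The strand setting and annotation release are not given in the sources used here.

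Columns were assigned to the hypothalamus by 6 markers, as described above, since headings give the mouse only. Counts were tested with edgeR 4.0.16 (R 4.3.3) by the quasi-likelihood test, with TMM scaling, filterByExpr, Benjamini-Hochberg adjustment and a threshold of 0.05. The standard error of a log2 fold change was derived from it and the F statistic. CPM values are counts per 1000000 of the column total. In all, 3 comparisons were fitted: fasted against chow, the interaction of diet with region (mouse as a block), and the interaction of diet with study. Alternatives used limma 3.58.1, DESeq2 1.42.0, sva 3.50.0, other filters and covariates, and each mouse left out. Steps were tested on simulated data with a dispersion, the squared relative spread between libraries beyond counting noise, of 0.05. The common dispersion estimated for fasted against chow was 0.1198, so recovery in these data may be lower. Of 100 genes changed by 1 on the log2 scale, the 3 comparisons, in the order given, recovered 96, 60 and 35. Of 100 changed by 0.5 they recovered 22, 0 and 0.

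Named genes were the 10 largest rises and falls of called genes whose diets did not overlap, whose average log2 CPM was 1 or more and whose symbol was not that of a gene model, up to 4 called members of each of 31 lists, a set of appetite and hormone genes whatever their result, and the first 5 of each interaction. Other genes named for their values in the libraries marked ok, among those that did not pass, or in the study comparison were chosen after their values were seen. The members and lists were chosen with earlier results of these data known. Gene symbols and positions are from GENCODE vM39 and promoter windows from RefSeq on GRCm38.p6. The labels name separate mice, so p-values measure the spread between mice. In the 16 h study mice of the same cage shared a diet, and no cage term was fitted. A few items that the rule names are not reported here.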

Additional observations from a re-analysis of the deposited data

Results flagged for a closer look

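A library far from the others of its diet was found in 26 of 120 tests of named genes, 21.7%, where chance gives about 1 in 20, and all 26 values belong to the libraries not marked ok. Chow mouse 1422 lay apart for 24 genes. Its values were low for Plekhf1 (1.74 CPM), Paqr6 (14.1 CPM), Bcl6 (10.9 CPM), Pdk4 (3.92 CPM), Arrdc3 (32.4 CPM), Hr (16.8 CPM), Per1 (27.0 CPM), Slc7a11 (51.1 CPM), Chordc1 (44.4 CPM), Hsph1 (181 CPM), Aqp4 (48.9 CPM), Nes (3.70 CPM) and Mfsd2a (2.39 CPM), and for the hypothalamic genes Hcrt (4.13 CPM), Pmch (6.53 CPM), Trh (16.1 CPM), Lepr (4.57 CPM), Ghsr (0.870 CPM) and Mc4r (0.435 CPM). They were high for Cdkn1a (9.35 CPM), Arl4d (7.61 CPM), Ddit4 (48.9 CPM), Crh (3.48 CPM) and Sst (108 CPM). Fasted mouse 1455 was low for Pdk4 (7.96 CPM) and fasted mouse 1445 for Ghrh (0.714 CPM).

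The effect of the fast differed between the hypothalamus and the other columns by 1.94 for Agrp and 1.56 for Npy (log2, edgeR interaction test). Between the 24 h and the 16 h study it differed by 2.96 for Cdkn1a, 2.35 for Plin4, 2.29 for Otoa, 1.92 for Sult1a1, 1.80 for Sgk1, 1.70 for Arrdc2, 1.56 for Angptl4, 1.51 for Hr, 1.38 for Fkbp5, 1.23 for Pdk4 and -0.67 for Paqr6 (log2). The length of the fast, housing and sequencing cannot be told apart in the second comparison.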

How the results depend on the processing

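The count of genes called between the diets was 340 in the main analysis, 157 at an adjusted p under 0.01, 860 with DESeq2, 599 with limma-voom, 2694 with libraries marked ok, 563 when columns had to hold 16000 expected genes in a draw of 500000 counts, 646 with the marker mean as a covariate, 1456 with 1 surrogate variable and 767 with the log10 total. Alternatives chosen after seeing the data gave 1458 with the flowcell as a covariate, 695 with the expected genes as a covariate, 3746 with limma-voom and a weight per library and 2258 with libraries marked ok and not chow mouse 1431. Leaving out each mouse in turn gave 214 to 523. The share of calls that were higher in fasted mice lay between 42.1% and 73.2%, with 60.3% in the main analysis. The other settings gave 276 to 340.

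For the difference from the other columns, the main analysis called 2. EdgeR at an adjusted p under 0.01 called 0 (573 at an unadjusted p under 0.05), and limma on differences in log2 CPM 0 (520). The analysis without mice 1423 and 1454 called 1, as did that of mice whose hypothalamus library is marked ok. Leaving out each mouse gave 0 to 3. For the difference between the studies, 27 in the main analysis, 13 were called at an adjusted p under 0.01, 372 with libraries marked ok and 20 to 52 with 1 mouse left out. The cause of these shifts was not tested.

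Of 48 named genes called, 42 were called under every setting that did not leave out a single mouse and 39 whichever mouse was left out. Of 12 not called, Crh and Ghsr were called among libraries marked ok. Cartpt was called as lower with limma-voom and a weight per library, at -0.25 (adjusted p = 0.0447), and with libraries marked ok and not chow mouse 1431, at -0.34 (adjusted p = 0.0148), and further settings gave -0.31 to -0.04 for Cartpt without a call. No paired analysis was possible because the diets share no animals. Depth was lowest in the 4 libraries not marked ok, at 4200885 to 6910059 counts.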

Other observations

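A further column of a chow mouse lay just under the minimum of counts. The column of mouse 1451 with a high marker mean held 964813 counts and entered no comparison. In it, Agrp had 6 counts (6.22 CPM), Npy 7 (7.26 CPM), Pomc 26 (26.9 CPM), Prl 1, Sgk1 22 (22.8 CPM), Fkbp5 17 (17.6 CPM), Cdkn1a 9 (9.33 CPM) and Plin4 12 (12.4 CPM).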
